A study of Gallus gallus with 34 samples.

Results

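Transcripts of 6 genes that build or bind the hyaluronan matrix were followed in the eyes of chicks wearing lenses: HAS2, PTX3, VCAN, HAPLN1, CD44 and TNFAIP6. The genes were chosen by symbol out of 13067 genes in the count table. Symbols gave 5 of them, and TNFAIP6 was found by its description because the table spells it TNFIP6. Each of the 34 libraries came from the pooled retina, retinal pigment epithelium (RPE) and choroid of the right eye of 1 male Leghorn/New Hampshire chick. Chicks wore a lens of +10 diopters (positive lens, which induces hyperopia), a lens of minus 10 diopters (negative lens, which induces myopia) or No Lens, for 1, 2 or 3 days from post-hatch day 5, so that they were 6, 7 or 8 days old. The No Lens groups of 1 and 2 days held 3 chicks and the other groups held 4. The sequenced chicks had been picked from larger groups for a strong and cohesive change in refraction and eye size, and the No Lens chicks were separate animals, which limits the groups as a picture of all lens-wearing chicks. HAS2, PTX3 and VCAN belong to the study's own published lists of genes that differ between these lens groups. Their values between lens groups are therefore given as a description, without a p-value, and where they passed a threshold in these chicks this restates the choice and is no test.

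Hyaluronan is a very long, unbranched sugar polymer that holds water in loose connective tissue. It is made at the cell surface by hyaluronan synthases such as HAS2, is decorated by proteoglycans such as versican (VCAN) that are locked to it by link proteins such as HAPLN1, and is bound by cells through receptors such as CD44. In mammals TNFAIP6 (also called TSG-6) and the secreted pattern recognition protein PTX3 help to cross-link hyaluronan chains around the egg cell and in inflamed tissue. In the eye hyaluronan is found in the vitreous, around photoreceptors and in the choroidal stroma, a layer that thickens in chicks under positive lenses and thins under negative lenses. No sequence of these genes or their proteins is shown, because no sequence table was used here. The genes lie on chromosomes 2 (HAS2), 9 (PTX3), Z (VCAN and HAPLN1), 5 (CD44) and 7 (TNFAIP6). Among protein-coding genes in the RefSeq annotation of the GRCg7b assembly, VCAN and HAPLN1 are separated by a single uncharacterised gene.

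The reads counted in a chick summed to between 1592763 and 13765634 (median 5014243.5), and the lowest total belonged to replicate 2 of the positive lens at 3 days. Levels are given as CPM (a gene's count scaled to a common library size) after TMM scaling, as the mean ± SD over the chicks of a group. All 6 genes were of low abundance, with mean levels at percentiles 12.0 to 36.5 of the table, and median counts per chick ran from 9.5 for TNFAIP6 to 52.5 for VCAN. The depth therefore limits what can be said of TNFAIP6 and of PTX3 under the negative lens. Markers of photoreceptors, Müller glia and RPE were present in every group, and so were markers of stromal fibroblasts, with summed levels of 413 to 1315 CPM over 7 of 8 listed genes. In such pooled tissue, fewer cells of a type and less RNA per cell cannot be told apart.

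HAS2, the synthase, was higher under the positive lens and lower under the negative lens than in age-matched chicks with No Lens. At day 1 it stood at 15.6, 18.3, 12.2 and 28.0 CPM in the 4 positive lens chicks, at 10.6, 8.24 and 7.22 CPM in the 3 No Lens chicks and at 4.56, 4.04, 4.78 and 4.87 CPM in the 4 negative lens chicks. The 3 groups did not overlap at this age. At day 2 the positive lens chicks had 12.5, 13.4, 22.3 and 16.6 CPM, the No Lens chicks 7.11, 4.65 and 5.39 CPM, and the negative lens chicks 3.84, 4.36, 3.43 and 3.802 CPM. Again no value of a group lay within another. At day 3 the positive lens chicks had 36.02, 10.1, 12.0 and 21.3 CPM, the No Lens chicks 2.39, 9.26, 6.67 and 5.14 CPM, and the negative lens chicks 4.77, 4.34, 3.00 and 4.05 CPM. All positive lens chicks were then above all others, while the negative lens and No Lens chicks overlapped.

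The mean level of HAS2 under the positive lens was 2.13 times that of No Lens at day 1, 2.83 times at day 2 and 3.39 times at day 3. The means were 18.5, 16.2 and 19.8 CPM under the positive lens and 8.70, 5.72 and 5.86 CPM with No Lens. The ratio therefore rose while the No Lens mean was lower at days 2 and 3 than at day 1. The fitted log2 fold changes against No Lens were 1.10 (SE 0.26), 1.47 (SE 0.25) and 1.82 (SE 0.38). Without replicate 1 of the positive lens, the chick with 36.02 CPM, the last of these was 1.36. For the negative lens against No Lens they were -0.90 (SE 0.28), -0.60 (SE 0.26) and -0.50 (SE 0.42). The coefficient of variation of HAS2 was 8.19% at its lowest, in the negative lens group of day 1, and 59.6% at its highest, in the positive lens group of day 3. The lowest value rested on 14 to 56 counts per chick, so counting error limits it. Whether replicate spread differed between the lens groups was not tested.

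PTX3, the pentraxin, was higher under the positive lens and lower under the negative lens than with No Lens, in the group means of each day. At day 1 the positive lens chicks had 7.12, 22.1, 5.86 and 24.7 CPM against 2.84, 5.69 and 2.93 CPM with No Lens and 0, 2.59, 0.24 and 0.70 CPM under the negative lens. The positive lens chicks fell into a lower and a higher pair, both above No Lens. At day 2 they had 11.9, 10.7, 28.7 and 27.5 CPM against 2.37, 3.99 and 5.90 CPM with No Lens and 0.24, 0.89, 0.21 and 1.20 CPM under the negative lens. At day 3 they had 39.9, 6.74, 12.8 and 27.3 CPM against 2.94, 6.36, 5.25 and 11.2 CPM with No Lens and 2.15, 1.61, 0.75 and 1.17 CPM under the negative lens. All negative lens chicks lay below all No Lens chicks of their age at each day, whereas at day 3 the positive lens and No Lens chicks overlapped.

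Few reads stood behind the negative lens values of PTX3. The 4 chicks together gave 18 reads at day 1, 18 at day 2 and 35 at day 3, against 59 to 197 in the No Lens groups and 437 to 530 in the positive lens groups. In the chick with no PTX3 read, a count of 0 allows up to 3 counts, or 0.622 CPM, counting error only. The fitted log2 fold changes of the positive lens against No Lens were 1.99 (SE 0.64), 2.34 (SE 0.49) and 1.75 (SE 0.43) at days 1, 2 and 3. For the negative lens against No Lens they were -2.26 (SE 0.81), -2.47 (SE 0.60) and -2.21 (SE 0.56). Between the negative and positive lenses they reached -4.25 (SE 0.72), -4.81 (SE 0.53) and -3.96 (SE 0.53). The mean CPM under the positive lens was 17.0, 31.0 and 15.3 times that under the negative lens. The day 1 values rested in part on replicate 2 of the negative lens, which held 9 of the 18 reads. Without it the value was -3.14 against No Lens and -5.13 against the positive lens.

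VCAN, the large chondroitin sulfate proteoglycan versican, was higher under the positive lens, and most so at day 3. At day 1 the positive lens chicks had 11.3, 13.4, 14.97 and 36.05 CPM, with 12.1, 12.6 and 8.68 CPM in No Lens chicks and 9.13, 6.92, 7.89 and 8.00 CPM in negative lens chicks. A single chick, replicate 4 of the positive lens, set much of that mean, and the positive lens and No Lens chicks overlapped. At day 2 the positive lens chicks had 13.8, 13.7, 25.5 and 16.6 CPM, the No Lens chicks 12.0, 11.3 and 7.18 CPM and the negative lens chicks 10.1, 9.34, 9.64 and 8.60 CPM. At day 3 they had 49.3, 20.2, 17.1 and 39.1 CPM, against 9.19, 10.0, 9.69 and 11.2 CPM with No Lens and 8.58, 6.57, 6.01 and 9.17 CPM under the negative lens. The 3 groups of day 3 did not overlap, but the margin between the negative lens and No Lens was narrow, between 9.17 and 9.19 CPM.

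The fitted log2 fold changes of VCAN under the positive lens against No Lens were 0.76 (SE 0.35), 0.77 (SE 0.26) and 1.66 (SE 0.28) at days 1, 2 and 3. Under the negative lens they were closer to zero, at -0.45 (SE 0.36), -0.13 (SE 0.26) and -0.39 (SE 0.30). The No Lens means of VCAN hardly moved with age, at 11.1 ± 2.11, 10.1 ± 2.59 and 10.0 ± 0.85 CPM.

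**Figure D1:**
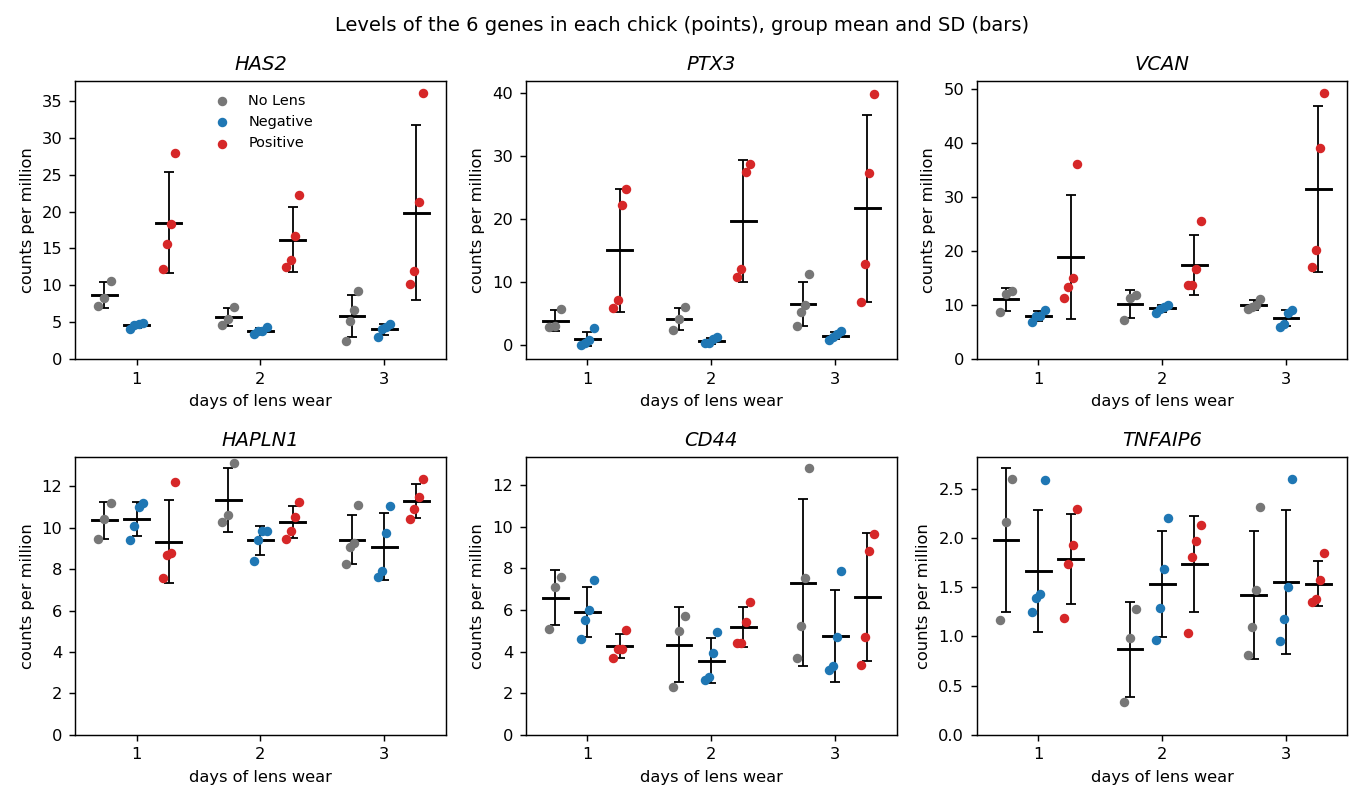
CPM of HAS2, PTX3, VCAN, HAPLN1, CD44 and TNFAIP6 (y axes, each panel with its own scale that includes 0) by day of wear (x axes, days 1 to 3) in No Lens, negative lens and positive lens chicks. Points are single chicks, horizontal bars group means and error bars the SD over 3 or 4 chicks; the positive lens chicks stand above all negative lens chicks for HAS2, PTX3 and VCAN at each age, whereas the groups of HAPLN1 and TNFAIP6 lie close together.

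The other 3 genes did not separate the lens groups in this way. HAPLN1, the link protein, had group means between 9.08 and 11.3 CPM in all 9 groups. Its coefficient of variation within groups was 7.27% to 21.6%. Its log2 fold changes between lens groups ran from -0.30 to 0.24, and their adjusted p-values from 0.541 to 1.00 (edgeR quasi-likelihood test, Benjamini-Hochberg adjustment over all genes tested). At day 2 the 4 negative lens chicks, at 9.85, 9.43, 9.86 and 8.40 CPM, were below the 3 No Lens chicks, at 13.1, 10.6 and 10.3 CPM. That difference did not pass the test, with a log2 fold change of -0.30, SE 0.17 and adjusted p = 0.998 in edgeR.

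CD44, the main cell surface receptor for hyaluronan, had small differences of both signs. At day 1 the positive lens chicks had 4.14, 4.14, 3.69 and 5.06 CPM and lay below the No Lens chicks, which had 7.09, 5.10 and 7.61 CPM. The margin was narrow, between 5.06 and 5.10 CPM. The log2 fold change was -0.64 (SE 0.24), which did not pass (adjusted p = 1.00, edgeR). At day 2 the positive lens chicks had 5.16 ± 0.96 CPM and the No Lens chicks 4.34 ± 1.80 CPM, and at day 3 they had 6.64 ± 3.07 and 7.32 ± 4.01 CPM. The groups overlapped on both days. Under the negative lens the level was 5.90 ± 1.19, 3.57 ± 1.07 and 4.75 ± 2.21 CPM at days 1, 2 and 3, with log2 fold changes against No Lens of -0.16 (SE 0.24), -0.32 (SE 0.34) and -0.77 (SE 0.40). None of the 9 lens comparisons of CD44 passed the test, and the lowest adjusted p was 0.536 in edgeR.

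TNFAIP6, the hyaluronan-binding protein TSG-6, was near the limit of detection. Counts per chick were 1 to 27, and group means lay between 0.87 CPM in No Lens chicks of day 2 and 1.98 CPM in No Lens chicks of day 1. The lens groups overlapped on all 3 days. It passed the filter on low counts among the lens comparisons only at day 1, where its log2 fold changes were -0.23 (SE 0.41) for the negative lens and -0.04 (SE 0.40) for the positive lens against No Lens, with adjusted p-values of 1.00 in edgeR. No change of this gene was detected.

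Across the lens comparisons, the number of the 6 genes whose groups did not overlap was set beside the share of all tested genes that did so. Between the negative and positive lenses it was HAS2, PTX3 and VCAN, 3 of 6, at each age, where 1.98%, 1.96% and 3.70% of all genes did not overlap at days 1, 2 and 3. Between the positive lens and No Lens it was 3 of 6 at day 1 (HAS2, PTX3 and, in the lower direction, CD44), 3 of 6 at day 2 (HAS2, PTX3, VCAN) and 2 of 6 at day 3 (HAS2, VCAN), with 5.41%, 3.79% and 11.6% of all genes. Between the negative lens and No Lens it was 2 of 6 at day 1 (HAS2, PTX3), 3 of 6 at day 2 (HAS2, PTX3, HAPLN1) and 2 of 6 at day 3 (PTX3, VCAN), all in the lower direction, with 5.63%, 7.18% and 3.93% of all genes. Since HAS2, PTX3 and VCAN were chosen for these contrasts, nothing is read from their counts.

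At an adjusted p below 0.05 in the same fits, the share of all genes called between the negative and positive lenses was 0.0262%, 0.0526% and 0.0348% at days 1, 2 and 3, or 3, 6 and 4 genes. They included HAS2 at day 1, HAS2 and PTX3 at day 2, and PTX3 and VCAN at day 3, and nothing is read from this, since these contrasts chose the genes. Between the positive lens and No Lens at day 3 the share was 0.878% (101 of 11501 genes), HAS2 and VCAN among them. The counts over all genes hung on single chicks. Between the lenses they were 17 without replicate 1 of the negative lens at day 1, 0 without replicate 3 of the negative lens at day 2 and 84 without replicate 3 of the positive lens at day 3. For the positive lens against No Lens at day 3 they ran from 0 to 107 over the 8 omissions, with 0 without replicate 1, 3 or 4 of No Lens or replicate 4 of the positive lens. Over the same omissions the log2 fold changes were 1.36 to 2.10 for HAS2 and 1.36 to 1.87 for VCAN. In the remaining comparisons, the positive lens against No Lens at days 1 and 2 and the negative lens against No Lens at all 3 days, edgeR's quasi-likelihood test called none of the 6 genes and 0% of all genes, but 355 genes were called for the negative lens at day 3 without its replicate 4. At an unadjusted p below 0.05, 286 to 568 genes passed in those at days 1 and 2 and 1181 for the negative lens at day 3. DESeq2 without a beta prior called HAS2 and PTX3 for the positive lens and PTX3 for the negative lens at day 2, and neither HAPLN1, CD44 nor TNFAIP6 in any lens comparison.

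**Figure D2:**
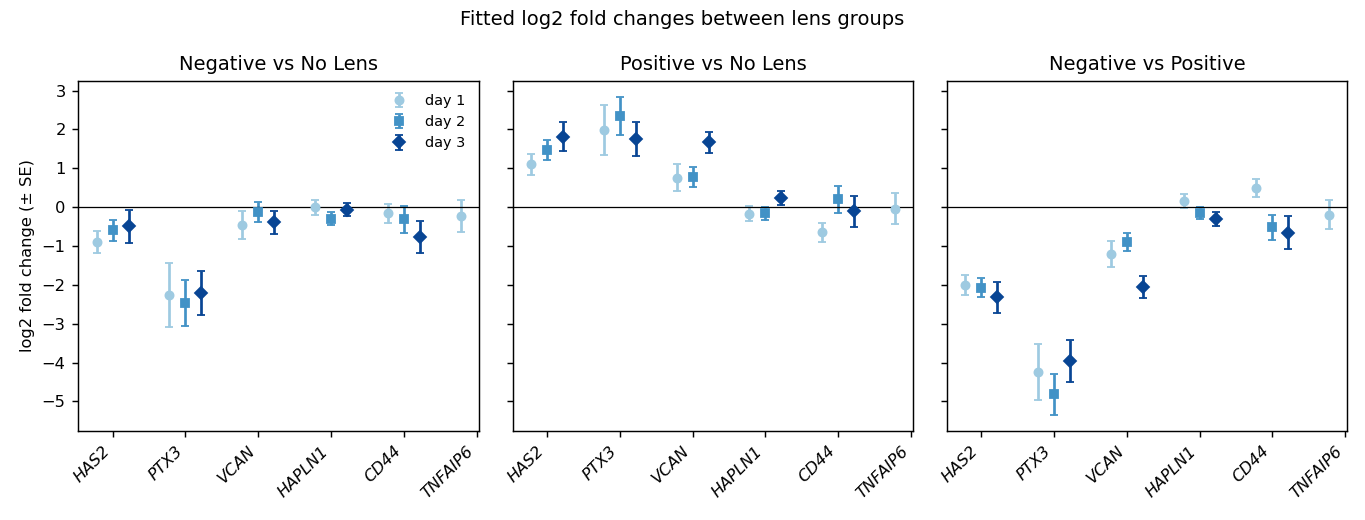
Fitted log2 fold changes (y axis, points) with their SE (bars) for the 6 genes (x axis) at days 1, 2 and 3, in the 3 comparisons of lens groups; TNFAIP6 passed the filter only at day 1. HAS2 and PTX3 lie above zero for the positive lens and below it for the negative lens, with PTX3 at -3.96 to -4.81 between the lenses, while HAPLN1 stays within 0.30 of zero.

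Changes with age were tested within each lens group, a comparison that did not serve to choose the genes. None of the 6 passed. Of all genes, edgeR's quasi-likelihood test called 0.00873% in the No Lens group from day 2 to day 3 and from day 1 to day 3, and 0.0264% under the negative lens from day 1 to day 2, and 0% in the other 6 comparisons. These shares depended on single chicks and on the tool. Without replicate 1 of the No Lens chicks of day 3, 56 genes were called from day 2 to day 3 and 29 from day 1 to day 3, where DESeq2 without a beta prior called 51 and 78. The 3 genes called under the negative lens fell to 0 when any of 5 of its 8 chicks was left out and to 1 without replicate 4 of day 2. Of 45 values tested 2 had an unadjusted p below 0.05, both for CD44. The share of all genes at that threshold was not counted over time, so nothing is read from these 2. DESeq2 with or without a beta prior also called none of the 6. HAS2 had log2 fold changes over time of -0.55 to 0.32 (lowest adjusted p = 0.510 in edgeR), with the No Lens chicks going from 8.70 ± 1.76 CPM at day 1 to 5.72 ± 1.26 and 5.86 ± 2.87 CPM. PTX3 could be tested under No Lens and the positive lens only, with values of 0.04 to 0.84 (lowest adjusted p = 0.449). VCAN under the positive lens went from 17.4 ± 5.56 CPM at day 2 to 31.4 ± 15.4 CPM at day 3, a log2 fold change of 0.85 (SE 0.40) that did not pass the test (adjusted p = 1.00 in edgeR).

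The CD44 values of lowest p had opposite signs. Under the negative lens its log2 fold change from day 1 to day 2 was -0.71 (SE 0.31, adjusted p = 0.846 in edgeR), and under the positive lens that from day 1 to day 3 was 0.71 (SE 0.30, adjusted p = 0.783). HAPLN1 stayed within -0.29 and 0.27 in the 9 comparisons over time. TNFAIP6, testable over time in No Lens chicks only, had values of -0.99 to 0.59, each with an adjusted p of at least 0.735.

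Whether a lens effect differed between days was asked with interaction contrasts over all 34 chicks. In 6 contrasts and 36 values no gene of the 6 was called by edgeR's quasi-likelihood test, where 0% of 11882 genes were called, and DESeq2 without a beta prior called none of the 6 either. For HAS2, PTX3 and VCAN these contrasts reuse the lens values that chose the genes, so their values are given as a description. The positive lens effect on VCAN was larger at day 3 than at day 1 by 0.92 (SE 0.44) on the log2 scale. The positive lens effect on HAS2 differed by 0.72 (SE 0.47) and that on PTX3 by -0.23 (SE 0.78) between the same days.

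Genes around the 6 were read from lists of hyaluronan synthesis, breakdown, receptors, proteoglycans, cross-linking partners and versican-cleaving proteases. Besides the 6 genes, the lists named 57, of which 38 were in the table and 33 were tested. Over the 9 lens comparisons, 1 of 291 values was called by edgeR's quasi-likelihood test, and it was in the higher direction. It belonged to HYAL2, a hyaluronidase that is anchored at the cell surface and cuts long hyaluronan chains. At day 3 HYAL2 had 7.74, 6.74, 6.28 and 8.64 CPM under the positive lens and 2.57, 3.09, 1.82 and 2.20 CPM with No Lens. The groups did not overlap, and the log2 fold change was 1.61 (SE 0.33, adjusted p = 0.0408). In that comparison 11.6% of all genes tested did not overlap and 0.878% were called. Over the 9 lens comparisons, 30 of the 291 values had an unadjusted p below 0.05 in edgeR. Among all genes, 286 to 2027 per comparison were below it, of 11410 to 11501 tested. Nothing is read from these 30 values.

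The No Lens chicks of day 3 had the lowest mean of HYAL2 of all 9 groups, 2.42 ± 0.54 CPM, against 4.67 ± 2.48 and 4.68 ± 2.60 CPM in No Lens chicks of days 1 and 2. Under the positive lens it was 3.35 ± 2.55, 4.14 ± 3.05 and 7.35 ± 1.05 CPM, and under the negative lens 5.63 ± 3.35, 4.97 ± 3.58 and 5.47 ± 2.16 CPM. The value against No Lens at day 3 was 1.11 (SE 0.33, adjusted p = 0.413) for the negative lens. The call for the positive lens was lost when any of 7 of the 8 chicks was left out, with fold changes on the log2 scale of 1.50 to 1.73, and only the omission of replicate 2 of the positive lens kept it. HYAL2 is also on the study's edgeR list for this comparison, so it is no independent result.

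At day 3 the 32 tested genes of the lists beside the 6, HYAL2 included, had a median log2 fold change of 0.08 under the positive lens, with 22 above zero, and the median over all genes tested was -0.01. At days 1 and 2 the list medians were -0.08 and -0.08. Under the negative lens against No Lens they were 0.02, -0.03 and 0.04 at days 1, 2 and 3. For the positive lens at day 3 the 7 precursor enzymes listed with HAS2, with no other synthase among them, ran from -0.10 to 0.63 with a median of 0.06, and the 4 receptors beside CD44 from -0.14 to 0.19 with a median of 0.14. The 3 proteoglycans tested beside VCAN, with no link protein beside HAPLN1 among them, had a median of -0.15, and the highest of them was brevican (BCAN), a nervous system proteoglycan that binds hyaluronan. BCAN had 1.14 (SE 0.34, adjusted p = 0.0870 in edgeR) for the positive lens and 1.26 (SE 0.33, adjusted p = 0.413) for the negative lens against No Lens at day 3, and neither passed the test. Over time none of the list genes passed the test in edgeR, while DESeq2 with or without a beta prior called 3 values. An unadjusted p below 0.05 in edgeR was held by 38 of 291 values. The share of all genes at that threshold was not counted over time, so nothing is read from these 38.

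**Figure D3:**
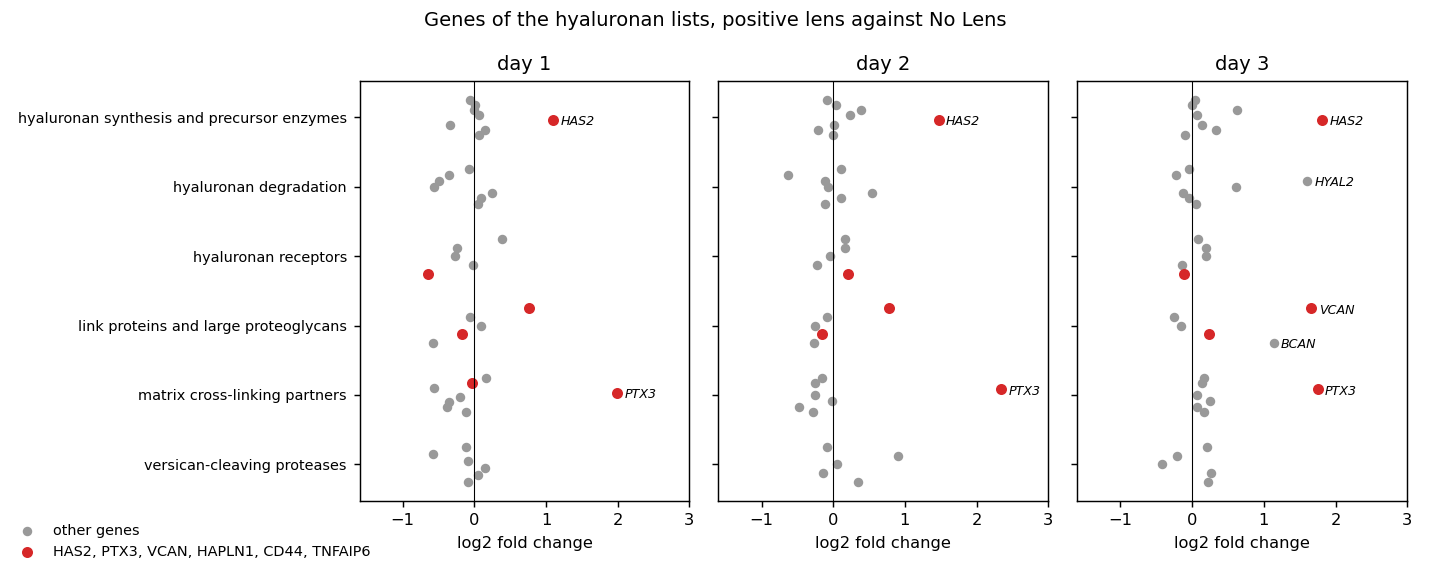
Log2 fold changes (x axes) of the genes of the 6 hyaluronan lists (rows, gray points) and of the 6 genes described here (red points), positive lens against No Lens at days 1, 2 and 3; genes beyond 1 are named. HAS2 and PTX3 stand apart from their lists at each day, VCAN, HYAL2 and BCAN exceed 1 at day 3 only.

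Chick-to-chick variation within groups does not use the lens contrast. After each group mean was removed from log2 CPM, HAS2 and VCAN were correlated over the 34 chicks (Pearson r = 0.69, permutation p = 0.00061, adjusted p = 0.00915 over 15 pairs; Spearman rho = 0.66, permutation p = 0.00157, adjusted p = 0.0236). The r without the 2 chicks farthest from the median was 0.69. HAS2 and PTX3 had r = 0.54 (permutation p = 0.00466, adjusted p = 0.0350) and rho = 0.52 (permutation p = 0.00931, adjusted p = 0.0698), and r = 0.45 without the 2 farthest chicks. PTX3 and VCAN had r = 0.40 and rho = 0.32, with permutation p-values of 0.0722 and 0.122 and adjusted p-values of 0.286 and 0.459. The remaining 12 pairs had r between -0.21 and 0.35, with adjusted p-values of at least 0.286 for r and 0.217 for rho.

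These correlations were high among the 12 positive lens chicks, with r = 0.88 for HAS2 and VCAN, 0.90 for HAS2 and PTX3 and 0.76 for PTX3 and VCAN. In the 10 No Lens chicks the same r were 0.27, 0.26 and 0.01, and in the 12 negative lens chicks 0.54, 0.17 and -0.35. The difference between lens conditions was not tested, and PTX3 had few reads under the negative lens. HAS2 had 8 to 56 counts per chick there, so counting error also limits its r. The chicks with high HAS2 under the positive lens, replicate 4 at day 1, replicate 3 at day 2 and replicates 1 and 4 at day 3, were also those with the highest VCAN of their groups. Without the chick of the lowest total count, r of HAS2 and PTX3 was 0.47 with an adjusted permutation p of 0.0709, and within each day alone no pair had an adjusted p below 0.05, though r of HAS2 and VCAN was 0.78, 0.69 and 0.71 at days 1, 2 and 3.

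**Figure D4:**
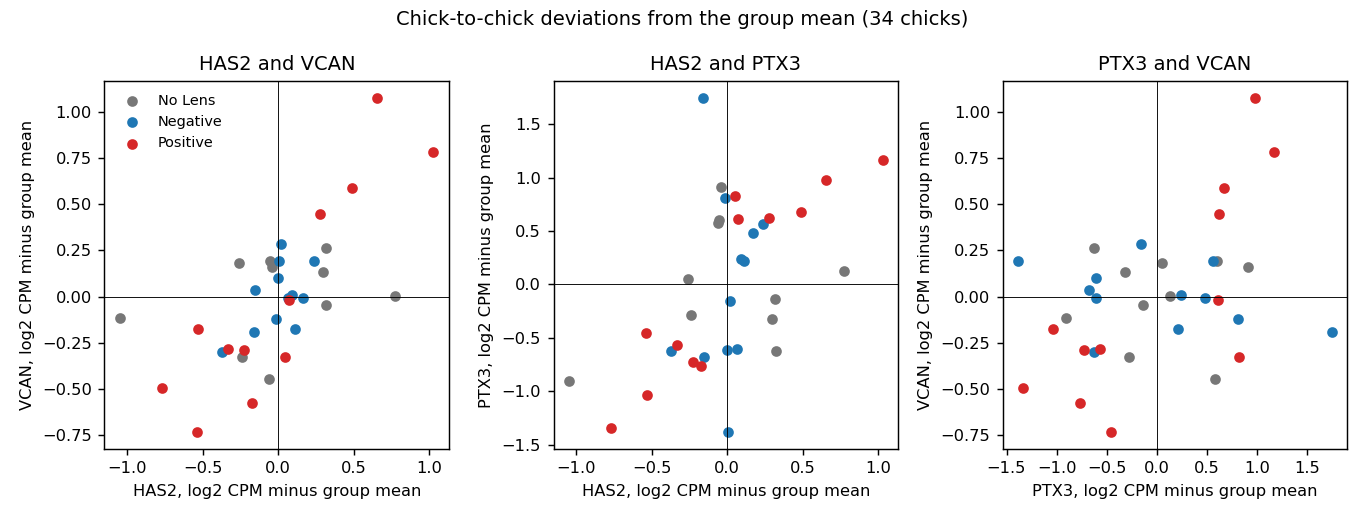
Deviation of each of the 34 chicks from its group mean in log2 CPM for HAS2 and VCAN, HAS2 and PTX3, and PTX3 and VCAN (1 point per chick, coloured by lens condition). The positive lens chicks lie along a rising line in each panel, with r of 0.88, 0.90 and 0.76, while No Lens chicks show r of 0.27, 0.26 and 0.01. The difference between lens conditions was not tested.

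The summed level of stromal fibroblast markers was compared with the 6 genes within groups, as were those of 10 other marker lists, and no relation passed the test after adjustment. For the fibroblast sum, r was 0.57 with HAS2 (rho 0.53, permutation p-values 0.00206 and 0.00773), 0.57 with PTX3 (rho 0.56, permutation p-values 0.00445 and 0.00429) and 0.53 with VCAN (rho 0.35, permutation p-values 0.0103 and 0.0896). Without the 2 chicks farthest from the median of the marker sum, r was 0.47, 0.52 and 0.44. Adjusted over 66 relations of 6 genes and 11 marker lists, the p-values of r were 0.0680, 0.0979 and 0.136, and those of rho 0.170, 0.142 and 0.591. Among the other lists, r had an unadjusted permutation p below 0.05 for VCAN with leukocyte markers (r = 0.50, rho = 0.57, adjusted p = 0.0680 and 0.0878) and for PTX3 with scleral cartilage markers (r = 0.46, rho = 0.42, adjusted p = 0.111 and 0.430). Most of the leukocyte sum was CSF1R, at a mean of 63.9 CPM, and most of the cartilage sum was COL2A1, at 71.8 CPM. Of the listed fibroblast genes COL1A1 was not used here, dermatopontin (DPT) had fewer than 3 counts in 15 chicks, and COL1A2, COL3A1 and decorin (DCN) made up most of the sum. At day 3 the marker sum was 1315, 765, 704 and 891 CPM under the positive lens and 544 to 728 CPM with No Lens, so those groups overlapped slightly, and replicate 1 was highest in the sum and in HAS2, PTX3 and VCAN. Of the 6 fibroblast markers tested, all had a log2 fold change above zero for the positive lens at day 3 (median 0.47), and 1 was called, COL1A2, at 0.89 (SE 0.20, adjusted p = 0.0452 in edgeR), named after its values were seen. In that comparison 0.878% of all genes were called. No gene was called without replicate 1, 3 or 4 of No Lens or replicate 4 of the positive lens, so the call of COL1A2 hung on single chicks. Of the 5 smooth muscle and pericyte markers, none was called. Their median was -0.66 at day 1, with 3 lower at an unadjusted p below 0.05, and 0.50 at day 3, with 3 higher. At that threshold in edgeR, 443 of 11448 genes passed in either direction at day 1 and 2027 of 11501 at day 3. The summed level of these markers at day 3 was 531 CPM under the positive lens and 563 CPM with No Lens. MYH11, at a mean of 356 CPM over all chicks, made up most of that sum and had a log2 fold change of -0.34 (SE 0.22) at day 3. Positive lens chicks had fibroblast sums of 556 to 792 CPM at day 1 and 413 to 849 CPM at day 2. Those of No Lens chicks were 671 to 789 and 509 to 689 CPM. The mean fibroblast sum at day 1 was 622 CPM under the positive lens and 724 CPM with No Lens. Single fibroblast markers went both ways at that age, with log2 fold changes from -0.70 for COL3A1 to 0.45 for LUM. The part of either marker list in the differences of HAS2, PTX3 and VCAN was not tested.

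The genes whose levels were most like those of the 6 over all 34 chicks were ranked by Pearson's r of log2 CPM, as a description that includes the lens contrast. For HAS2 they were VCAN (0.86), NPR3 (0.84), PTX3 (0.84), the unnamed ENSGALG00000001629 (0.83) and MASP1 (0.76). Within groups the r of HAS2 with these genes were 0.69, 0.59, 0.54, 0.59 and 0.20. NPR3 encodes the clearance receptor of natriuretic peptides, and MASP1 a protease that starts the lectin pathway of complement. For PTX3 they were NPR3 (0.91), HAS2 (0.84), RGS16 (0.80), ADAMTSL3 (0.79) and GCG (0.78), the last of which encodes proglucagon. With group means removed, r fell to 0.67 for NPR3 and to 0.08 for GCG, so that PTX3 and GCG shared their differences between groups but hardly those between chicks. For VCAN the nearest genes were HAS2 and NPR3 (0.83, and 0.68 within groups).

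The remaining members had other companions. CD44 was most like MLANA, a melanosome protein of pigment cells, with r = 0.76 over all chicks and 0.79 with group means removed, followed by MINPP1 (0.59). HAPLN1 was most like PDIA5 (0.57) and NEDD9 (0.56), and TNFAIP6 like mir-1647 (0.63) and FAM96A (0.62), at levels where few reads were counted. No member of the 6 was among the genes nearest to HAPLN1, CD44 or TNFAIP6.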

How the data were processed

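Retina, RPE and choroid RNA of 34 chicks in 9 groups was sequenced from stranded poly(A) libraries. After trimming (CutAdapt, Trimmomatic) and alignment to galGal4 (TopHat2, Bowtie2), the authors deposited raw counts of uniquely mapped reads per gene from HTSeq, with no normalization. The strand setting and tool versions are not given in the sources used here. Groups came from the sample labels, and 1 column name carries a suffix of unknown meaning. The counts of all 48 pairs of chicks within groups differed by more than sampling noise. Replicates were separate chicks, so p-values measure the spread between these chicks. The chicks had been selected for cohesive responses, and whether unselected chicks spread more was not tested. The SE and p-values therefore hold for the selected chicks only.

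Low genes were removed with filterByExpr (count of at least 10, total of at least 15), and the rest tested with edgeR 4.0.16 in R 4.3.3 (TMM, glmQLFit, glmQLFTest), with Benjamini-Hochberg adjustment over all genes and a threshold of 0.05. Lens contrasts were fitted on all chicks of a day, time contrasts on the 3 days of a lens group, and changes of lens effects on all 34 chicks. SE is the log2 fold change divided by the square root of F. CPM used TMM factors over all chicks, and log2 CPM a prior count of 2. Correlations used log2 CPM minus the group mean, with 100000 two-sided permutations within groups (numpy 2.4.6, scipy 1.17.1). The test was also run on simulated counts for 2 comparisons, drawn with the spread that the fits themselves estimated. Its outcome is not given here, and it cannot show how the test behaves where calls hang on single chicks. The genes named are the 6 members, list genes called in a comparison, and the 5 (HAS2, PTX3) or 2 genes most alike each member; BCAN was added after its values were seen. The members and lists were chosen with earlier results of these data known. The labels give no batch. Alternatives were DESeq2 1.42.0 with and without beta prior, edgeR's likelihood ratio test, RLE scaling, no filter, only the 2 groups compared, all 34 chicks in 1 fit, and each chick left out in turn. HYAL2 was added to these after its call was seen.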

Additional observations from a re-analysis of the deposited data

Results flagged for a closer look

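Opposite effects of the lenses, with every negative lens chick below and every positive lens chick above every No Lens chick of the same age, were seen for HAS2 at days 1 and 2 (log2 fold change of the negative against the positive lens -2.0001 and -2.07), for PTX3 at days 1 and 2 (-4.25 and -4.81) and for VCAN at day 3 (-2.06). These differences come from the fits described above on the contrasts that chose the genes, so they were not tested independently of that choice. The share of all genes with such an order of the 3 groups was not counted, so nothing is read from these cases. Some margins were narrow, between 9.17 CPM (negative lens) and 9.19 CPM (No Lens) for VCAN at day 3. For PTX3 at day 1 the margin was between 5.69 CPM (No Lens) and 5.86 CPM (positive lens). Of 42 combinations of 1 gene and 1 group of 4 chicks, which share chicks and are not independent, 2 held a chick far from the others, where chance gives about 1 in 20. Replicate 4 of the positive lens at day 1 had 36.05 CPM of VCAN, and replicate 2 of the negative lens at day 1 had 2.59 CPM of TNFAIP6, which rests on 9 reads.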

How the results depend on the processing

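Of the 54 comparisons of the 6 genes between lens groups, those of TNFAIP6 at days 2 and 3 did not pass the filter in edgeR's fits by day. The quasi-likelihood test called 7, DESeq2 12 without and 13 with a beta prior, and edgeR's likelihood ratio test 14. Leaving out 1 chick gave 5 to 9 in the quasi-likelihood test. All calls named by tool were of HAS2, PTX3 or VCAN on the contrasts that chose them, so the counts are no test of these genes. The counts over all genes rose too. For the positive lens against No Lens at day 3 they were 101, 533, 517 and 692 in the same order, of 11501 genes in edgeR and 12555 in DESeq2. The cause of the differences between tools was not tested. The beta prior drew fold changes of HAS2, PTX3 and VCAN towards zero. For PTX3 between the lenses at day 1, DESeq2 gave -4.20 without it and -0.42 with it. For HAPLN1, CD44 and TNFAIP6 the direction turned only where the value in the main fit was within 1 SE of zero. For HAS2, PTX3 and VCAN between lens groups a turn was recorded only where a value was called. Turns of their uncalled values are therefore not listed. HAPLN1 in the negative lens at day 1 became 0.00019 with RLE scaling, and TNFAIP6 in the positive lens at day 1 became 0.0034 in the likelihood ratio test. With 1 chick left out, HAPLN1 in the negative lens ran from -0.058 to 0.058 at day 1 and from -0.19 to 0.019 at day 3, TNFAIP6 at day 1 from -0.56 to 0.014 in the negative and from -0.37 to 0.21 in the positive lens, and CD44 from -0.61 to 0.0063 in the negative lens at day 2, from -0.091 to 0.52 in the positive lens at day 2 and from -0.35 to 0.35 at day 3. Without No Lens replicate 1, HAS2 in the negative lens at day 2 was -0.37. Over time no alternative called a member, and 26 of 647 values, all of results within 0.32 of zero, changed sign.

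Of 15 pairs of genes 2 were correlated within groups, 1 without the chick of the lowest total, and 0 within day 1, day 2 or day 3 alone, where 11 or 12 chicks remained. The share over all gene pairs was not counted beside these numbers. Among the other 12 pairs 10 of 72 values changed sign. Of the list genes beside the members, 1 lens value was called in the quasi-likelihood test, 3 in DESeq2 and with only the 2 groups in the fit, 4 in the likelihood ratio test and 0 with all 34 chicks in 1 fit, where HYAL2 had an adjusted p of 0.379. For the positive lens against No Lens at day 3 the number of all genes called ran from 0, without any of 4 of the 8 chicks, over 6 with all chicks in 1 fit to 692 in the likelihood ratio test, beside 101. No paired analysis was possible because the groups hold different chicks and the labels give no shared replicate number. At the counts of TNFAIP6, and of PTX3 under the negative lens, depth limits any fold change.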
